A study of Mus musculus with 6 samples.

Results

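The heat shock proteins and their J-domain cochaperones were examined in bone marrow-derived mesenchymal stromal cells (MSCs) of the mouse. Members were taken by name from the deposited gene table: the Hspa, Hspb, Hsp90a, Dnaja, Dnajb and Dnajc families, together with Hspd1, Hspe1, Hsph1 and the factors Hsf1 and Hsf2. Members of the endoplasmic reticulum stress response (Hspa5, Hsp90b1, Dnajb9, Dnajb11 and Dnajc3) were left out by that rule. It took 69 of the 23420 genes in the table, and 58 of them had at least 10 counts in at least 3 libraries. The rule goes by name and not by place in the cell. Mitochondrial proteins (for example Hspa9, Hspd1, Hspe1 and Dnaja3) and proteins of the endoplasmic reticulum (for example Hspa13, Dnajc1, Dnajc10 and Dnajc18) thus stand beside cytosolic ones.

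The study asked what expression of the thymoproteasome (TPr), a proteasome form of the thymic cortex, does to MSCs that are used as a vaccine. MSCs came from the femurs of female C57BL/6 mice aged 6 to 8 weeks, and both groups were grown in the same medium with serum and antibiotics and transduced with the same retroviral backbone, AP2. The 3 libraries labelled Ctl MSC carried the backbone with eGFP alone, and the 3 labelled MSC-TPr carried coding sequences for the subunits β1i, β2i and β5t. Nothing says whether the 3 libraries of a group came from separate cultures, so p-values measure only the spread between these libraries, which may be technical. In bulk RNA, fewer cells of a kind and less RNA per cell cannot be told apart.

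Between 16158756 and 22158887 reads per library fell on genes, and 3 reads were worth 0.139 to 0.181 CPM (a gene's reads relative to the total of its library, with totals scaled by the TMM method). In the RNA counts, neither the 3 transduced subunits nor cell division genes followed the labels. The paper checked transduction by eGFP and by immunoblots of the 3 subunits, and it lists the RNA of β2i as raised. Whether reads of the construct were counted on the genes of these subunits is not known. Psmb10 (β2i) had 27.8, 8.81 and 8.38 CPM in Ctl MSC libraries, against 8.97, 17.3 and 15.2 CPM in MSC-TPr libraries, and Psmb9 (β1i) and Psmb11 (β5t) overlapped between the groups too, at 3.38, 0.801 and 0.827 CPM against 0.554, 1.24 and 1.21 CPM and at 0.121, 0.214 and 0.110 CPM against 0.221, 0.355 and 0.0464 CPM. A list of 25 cell division genes had a mean log2 CPM of 6.39, 3.08 and 3.05 in Ctl MSC 1, 2 and 3 and of 3.13, 6.29 and 6.35 in MSC-TPr 1, 2 and 3, so that the library numbered 1 of each group stood apart from the other two of its label. Whether the labels of these 2 libraries were exchanged was not tested and cannot be told from the labels. Every fold change over 6 libraries rests on the labels as given. Values are given for all 6 libraries first, and beside them for the 4 libraries numbered 2 and 3. In those 4 libraries the label and the level of cell division genes cannot be told apart. A chi-square per gene between 2 libraries of a label, which grows with their difference, was 4.76 for Ctl MSC 2 and 3. It was 50 for MSC-TPr 2 and 3 and 154 to 191 for the other pairs. Ctl MSC 2 and 3 were thus the closest pair, and whether they are independent controls is not known. Every p-value over the 4 libraries rests on this pair. The 9 MSC markers summed to 3103 to 8078 CPM in Ctl MSC and 2116 to 13931 CPM in MSC-TPr libraries, with Col1a1 and Col1a2 highest in each. Thy1 (CD90), a defining marker of these cells, was under 1 CPM in all 6. Nt5e (CD73) had 11.4, 20.2 and 17.4 CPM in Ctl MSC, against 2.66, 4.2 and 5.24 CPM in MSC-TPr. Its log2 fold change was -2.02 (edgeR adjusted p 0.079), or -1.99 over the 4 libraries (0.00081). The other markers tested overlapped. By flow cytometry, the paper reports CD73 and CD90 on Ctl MSCs. Of 4 endothelial markers 3 were under 1 CPM in every library, and so were the haematopoietic markers Ptprc, Cd3e, Itgam, Csf1r and Lyz2, with Cd3e at 0.

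Heat shock proteins are the cell's chaperones: they bind unfolded stretches of protein, prevent aggregation, help folding and hand clients to the proteasome. HSP70 proteins bind and release clients in a cycle of ATP hydrolysis, which J-domain proteins start and HSP110 proteins, as nucleotide exchange factors, complete. HSP90 acts on nearly folded clients such as kinases and steroid receptors, and small heat shock proteins hold aggregating proteins without using ATP. Heat shock factors switch many of these genes on by binding repeats of a unit of 3 bases, GAA, and its reverse complement TTC in turn, spaced by 2 bases. Proteasome inhibition is a known trigger of this response.

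Sequences before the start of 9 members are shown because they carry, or in Hspa4 lack, the pattern that heat shock factors bind. They were taken from RefSeq windows of the GRCm38.p6 build, which run from 250 bases before to 50 bases after a transcript's start, and are written 5′ to 3′ on the gene's own strand, with the GAA and TTC units of each matched pair in capitals. Hspe1 and Hspd1, the co-chaperonin and the chaperonin of mitochondria, lie head to head and share 1 stretch of 4 units in turn, read on opposite strands. This stretch and those of Dnajb6, Dnaja1 and Hsph1 lie in an exon of some annotated transcript (GENCODE M21), and only 30 bases of each are given.
Hspe1, chr1:55088053-55088082, plus strand: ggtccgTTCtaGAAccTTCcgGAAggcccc
Hspd1, chr1:55088053-55088082, minus strand: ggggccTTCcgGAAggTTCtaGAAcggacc
Dnajb6, chr5:29735843-29735872, plus strand: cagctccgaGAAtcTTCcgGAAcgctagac
Hsph1, chr5:149636351-149636380, minus strand: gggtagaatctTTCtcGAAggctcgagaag
Dnaja1, chr4:40722333-40722362, plus strand: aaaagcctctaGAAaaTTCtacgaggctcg
Dnajb4, chr3:152193846-152193905, minus strand: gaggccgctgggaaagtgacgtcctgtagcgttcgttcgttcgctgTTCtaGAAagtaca
Hspb1, chr5:135887789-135887848, plus strand: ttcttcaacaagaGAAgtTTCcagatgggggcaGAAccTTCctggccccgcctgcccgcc
Hspa1a, chr17:34972227-34972286, minus strand: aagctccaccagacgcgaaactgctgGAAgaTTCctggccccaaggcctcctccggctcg
Hspa4, chr11:53300480-53300559, minus strand: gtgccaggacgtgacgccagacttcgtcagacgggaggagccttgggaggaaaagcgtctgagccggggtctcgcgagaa

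Hspa1b has the same 60 bases as Hspa1a at chr17:34959309-34959368, and 247 of the 250 bases before the start (98.8%) are identical between these 2 genes. A window was found for 54 of the 69 members and for 46 of the 58 that passed the count rule; the 12 without one are Hsp90aa1, Hsp90ab1, Hspa8, Hspa9, Hspa13, Hsf1, Dnajc2, Dnajc5, Dnajc11, Dnajc12, Dnajc18 and Dnajc30. A pair of units (GAANNTTC or TTCNNGAA, each its own reverse complement) was present in a window of 14 of those 46 members (30.4%), against 17.0% of all 27025 genes with a window. A run of 3 units, which contains 2 overlapping pairs, was present in 4 of the 46 (8.70%; Hspd1, Hspe1, Dnajb6 and Hsph1), against 0.662% of all genes. In Hsph1 the 3 units lie after the start. A match is a description of letters, and it says nothing of binding in these cells.

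The members spanned more than 3 orders of magnitude in level, and a few abundant chaperones made up most of it. Levels were compared between genes as CPM per kb of exon, averaged over the 6 libraries. The length took in every annotated exon, used in these cells or not. The order of genes and the size of ratios per kb depend on it. Members that share sequence with other genes, Hspa1a and Hspa1b among them, may be counted too low. The 5 highest members held 70.8% of the summed level, with Hsp90ab1, the constitutive HSP90, first at 1026 ± 169.9 CPM per kb (SD, n = 6 libraries). It was followed by the constitutive HSP70 Hspa8 at 641.6 ± 108.6, the mitochondrial chaperonin Hspd1 at 455.8 ± 65.1, the mitochondrial HSP70 Hspa9 at 385.5 ± 56.3 and the inducible HSP90 Hsp90aa1 at 350.9 ± 130.3 CPM per kb. Hspd1, Hspa9 and Hsp90aa1 do not differ in this order beyond their spread. In contrast, the heat-inducible HSP70 genes were low, with Hspa1b at 5.65 ± 2.73 and Hspa1a at 1.10 ± 0.385 CPM per kb, and the inducible small heat shock protein Hspb1 had 61.2 ± 28.7 CPM per kb. Among the J-domain proteins Dnaja2 was highest at 123 ± 27.7 CPM per kb, above Dnajc8, Dnaja1, Dnajc10 and Dnajb6 at 33.4 to 47.0. Dnaja2 has 2975 and Dnaja1 8629 bases of annotated exon. Without division by length, Dnaja2 and Dnaja1 had means of 301.1 and 320.6 CPM in Ctl MSC and of 433.0 and 297.5 CPM in MSC-TPr. Dnajb1, the best known inducible J-domain protein, had 18.9 ± 2.19 CPM per kb. Of the 58 members 8 lay at or above 100 CPM per kb, 28 at or above 10 and 6 below 1.

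**Figure D1:**
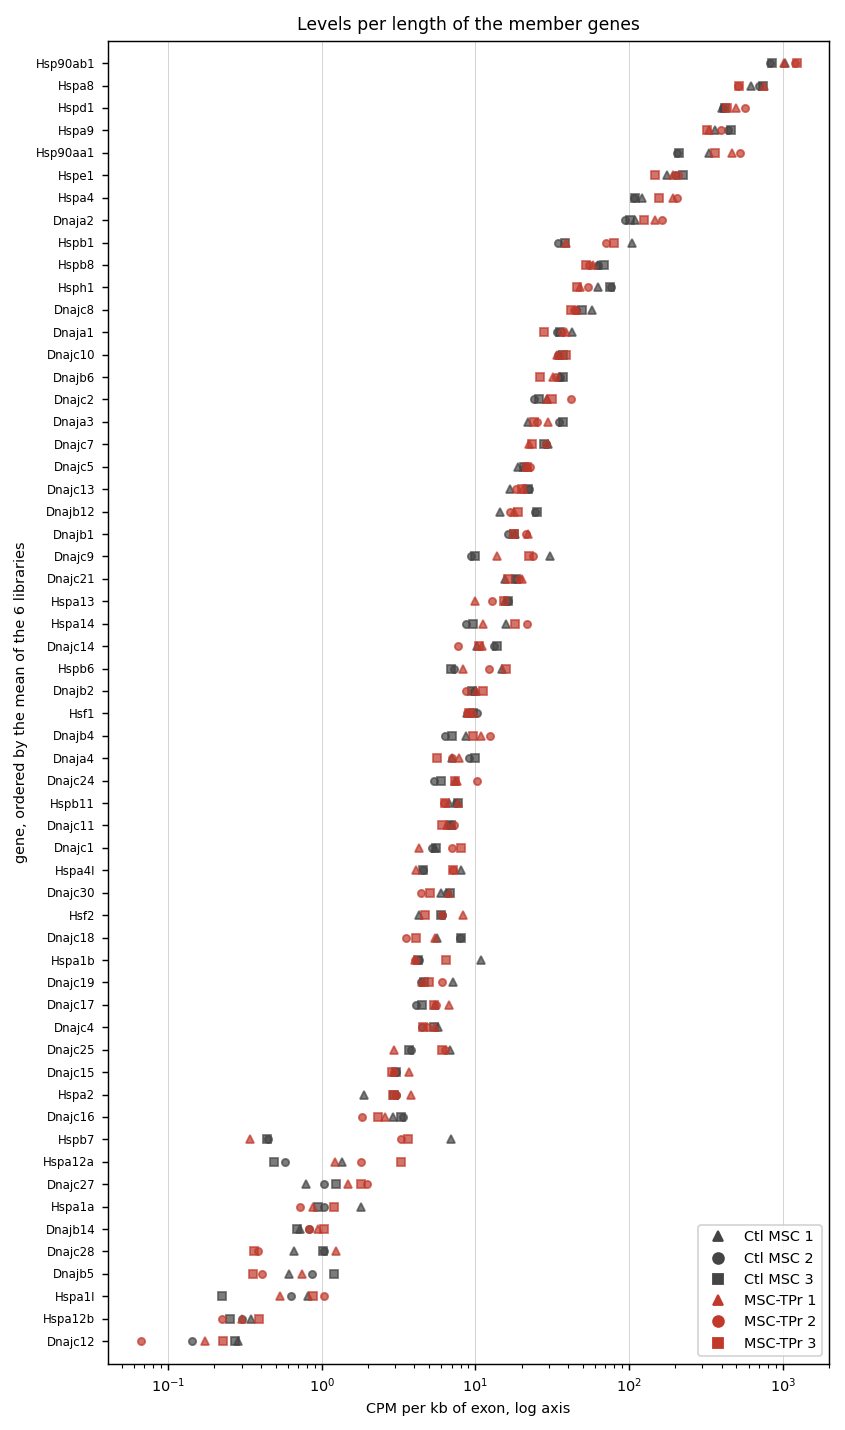
Level of each of the 58 members per kb of exon (log axis), 1 point per library, with Ctl MSC in grey and MSC-TPr in red and the library number given by the symbol. Hsp90ab1 leads at a mean of 1026 CPM per kb and Dnajc12 is last at 0.194, and the points of Hspb7 fall into a high and a low set that each hold libraries of both labels.

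The 11 members that failed the count rule had at most 11 reads in any library. They are Dnajb3, Dnajb7, Dnajb8, Dnajb13, Dnajc5b, Dnajc5g, Dnajc6, Dnajc22, Hspb2, Hspb3 and Hspb9, most of them known from testis, brain or muscle. Hspb2 had the most reads (4, 8 and 11 in Ctl MSC and 7, 3 and 8 in MSC-TPr libraries), and Dnajb3, Dnajb13, Dnajc5g and Hspb3 had none in any library.

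Some counts are less certain than others, since reads that match near-identical copies may have been left out or counted for another copy. Hspa1a shared 48.6% of its 100-base stretches with another gene's transcripts and Hspa1b 49.9%, each mainly with the other. For Hsp90aa1 the shared part was 38.0%, mainly with 2 pseudogenes, Gm12346 and Gm5844. Hspb1 shared 44.0% with the pseudogene Hsp25-ps1, Hspa8 28.2% and Hspd1 23.4%. Hspa4, Hsph1, Dnaja2, Dnajb4, Dnajc18 and Hspb7 were among the 36 members that shared none. Exons of 19 members, Hspd1 and Hspe1 among them, overlap a gene on the opposite strand, and the strand setting of the counting was not given in the sources used here.

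Across the 6 libraries no member was called between MSC-TPr and Ctl MSC. A call needed an adjusted p below 0.05 in edgeR's quasi-likelihood test and a change of 0.5 or more on the log2 scale. So defined, 0 of 58 members were called higher, where 0.0251% of all 11974 genes tested were, and 0 were called lower, where 0.401% were. At an unadjusted p under 0.05, 6 members (10.3%) were higher, beside 6.81% of all genes, and 3 (5.17%) lower, beside 8.23%. DESeq2 called 1 member higher, Hspa4, of the 57 to which it gave an adjusted p (1.75%, beside 1.8% of all genes), and 0 lower, beside 3.24%. The median log2 fold change of the 58 members was -0.02, that of all genes 0.01, and 29 members lay on each side of 0, between -0.82 and 1.39.

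In 15 members the labels did not overlap. In 9 of them (15.5%) all 3 MSC-TPr libraries lay above all 3 Ctl MSC libraries, as they did in 10.6% of all genes tested; these are Hsp90aa1, Hspa4, Hspd1, Dnaja2, Dnajb4, Dnajc2, Dnajc5, Dnajc24 and Dnajc27. In 6 (10.3%) all 3 lay below, as in 12.1% of all genes; these are Hsph1, Hspa13, Hspb8, Dnajb6, Dnajc16 and Dnajc18. With upper quartile scaling in place of TMM, 5 were above, beside 8.45% of all genes, and 7 below, beside 14.0%: Hspd1, Dnajc2, Dnajc5 and Dnajc24 then overlapped, and Dnajc8 was added to the lower ones. Without Ctl MSC 1 the labels did not overlap in 29 of 58 members, beside 47.3% of all genes, and without MSC-TPr 1 in 28 (48.3%, beside 41.4%).

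**Figure D2:**
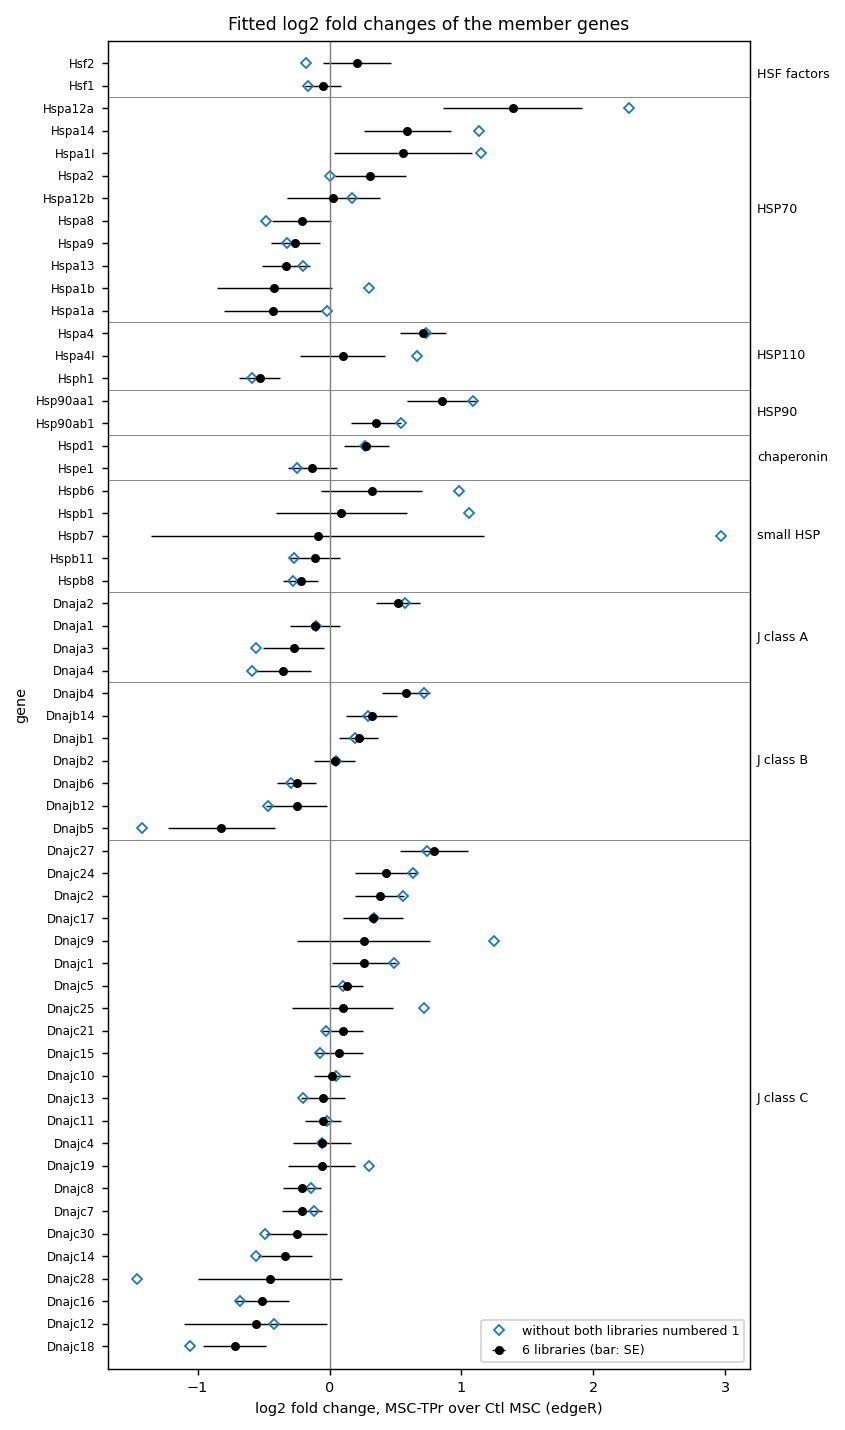
Fitted log2 fold change of MSC-TPr over Ctl MSC for each of the 58 members, grouped by role, from all 6 libraries (black, bar: SE) and from the 4 libraries numbered 2 and 3 (blue, open). Hspa4, Hsph1, Dnaja2 and Dnajb4 have similar values in both fits, whereas Hspb7 moves from -0.09 to 2.97.

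The HSP110 proteins, HSP70 relatives that exchange its nucleotide, lay on opposite sides of 0 in the fitted change between labels. Hspa4 had 674.6, 597.0 and 606.6 CPM in Ctl MSC libraries, against 1072, 1128 and 861.9 CPM in MSC-TPr libraries. Every MSC-TPr library lay above every Ctl MSC library. The log2 fold change of Hspa4 was 0.71 ± 0.17 (SE, n = 3 per group), with an edgeR adjusted p of 0.17 and a DESeq2 adjusted p of 0.0095. Without both libraries numbered 1 it was 0.73 with an edgeR adjusted p of 0.014, and with the level of the cell division list as a covariate 0.70 with an adjusted p of 0.027. Leaving out single libraries gave 0.63 to 0.82.

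Hsph1, the inducible HSP110, was lower in every MSC-TPr library, at 349.0, 390.5 and 334.8 CPM against 456.8, 551.9 and 542.2 CPM in Ctl MSC. Its log2 fold change was -0.53 ± 0.16 (SE, n = 3 per group; edgeR adjusted p 0.21, and 0.07 with DESeq2), and it was called lower in the 4 libraries numbered 2 and 3 (-0.59, adjusted p 0.014). The third member, Hspa4l, did not separate the labels, with 95.0, 53.7 and 53.7 CPM in Ctl MSC, against 48.3, 84.7 and 84.2 CPM in MSC-TPr. High Hspa4l went with the 3 libraries whose cell division genes were high, and its log2 fold change was 0.10 over 6 libraries (edgeR adjusted p 0.91) and 0.66 over 4 (0.0049).

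Because a ratio of 2 genes within a library does not depend on how libraries are scaled, the relation of the HSP110 genes was also given as a ratio, chosen after their values were seen and given with no test. Hspa4 stood at 1.94, 1.42 and 1.47 times Hsph1 per kb in Ctl MSC and at 4.04, 3.80 and 3.38 times in MSC-TPr. The means were 1.61 ± 0.29 and 3.74 ± 0.33 (SD, n = 3 each), 2.32 times apart. The lack of overlap was fixed by the choice of pair. Hspa4 was higher and Hsph1 lower in all 3 MSC-TPr libraries, so the ratio adds nothing to those results. The ratio of Hspa4 to Hspa4l overlapped between the labels, at 15.2 to 24.1 in Ctl MSC, against 21.8 to 47.3 in MSC-TPr.

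**Figure D3:**
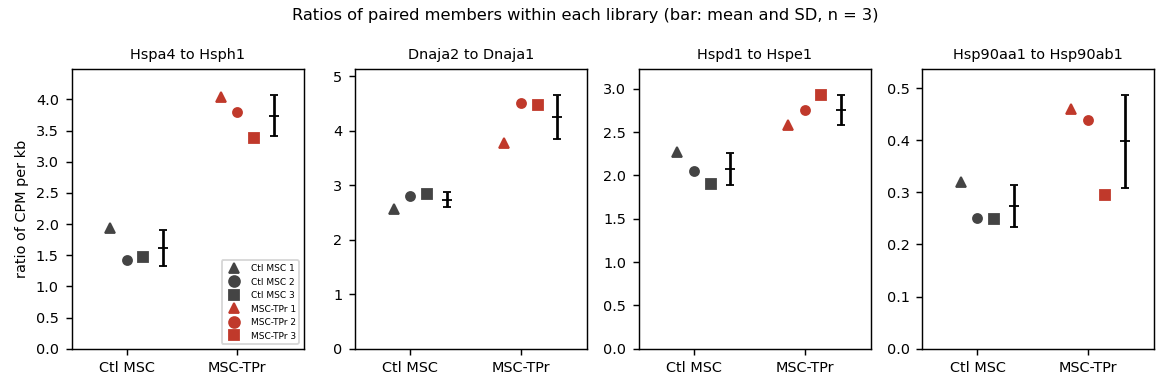
Ratio of the levels per kb of 4 pairs of members within each library, with the mean and SD of each label. The ratio of Hspa4 to Hsph1 lies between 1.42 and 1.94 in Ctl MSC and between 3.38 and 4.04 in MSC-TPr, and the ratio of Hsp90aa1 to Hsp90ab1 overlaps.

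Both HSP90 genes had positive fold changes, and their summed level separated the labels. Hsp90aa1 had 1299, 811.9 and 836.3 CPM in Ctl MSC, against 1830, 2075 and 1426 CPM in MSC-TPr. The lowest MSC-TPr library lay just above Ctl MSC 1, which is the Ctl MSC library with high cell division genes. Its log2 fold change was 0.85 ± 0.26 (SE, n = 3 per group), with an edgeR adjusted p of 0.22 and a DESeq2 adjusted p of 0.06. It was called in the 4 libraries numbered 2 and 3 (1.09, adjusted p 0.0071) and with the cell division covariate (0.79, adjusted p 0.045).

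Hsp90ab1 overlapped, with 3094, 2466 and 2560 CPM in Ctl MSC, against 3041, 3606 and 3691 CPM in MSC-TPr, and a log2 fold change of 0.35 (edgeR adjusted p 0.45) that was 0.54 over the 4 libraries (adjusted p 0.018). The summed level of both was 4393, 3278 and 3397 CPM against 4871, 5680 and 5117 CPM. Relative to Hspa8, its partner upstream in client transfer, Hsp90aa1 stood per kb at 0.532, 0.293 and 0.288 in Ctl MSC and at 0.615, 1.03 and 0.704 in MSC-TPr, a ratio also chosen after the values were seen. Counts of Hsp90aa1 are less certain because of its pseudogenes, as given above.

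HSP70 members, grouped by name, had a median of -0.09 on the log2 scale over 10 genes, and 0 were called in the 6 libraries. Hspa8, the most abundant, had 2670, 3029 and 3176 CPM in Ctl MSC, against 3253, 2213 and 2217 CPM in MSC-TPr. MSC-TPr 1 was the highest of all 6 libraries, so that the labels overlapped, and the log2 fold change was -0.21 (edgeR adjusted p 0.71). Over the 4 libraries numbered 2 and 3 it was -0.48 with an adjusted p of 0.025, short of the 0.5 that a call needed. Hspa9 had 1562, 1892 and 1979 CPM against 1434, 1716 and 1386 CPM, with a log2 fold change of -0.26 (adjusted p 0.56), or -0.32 over the 4 libraries (0.13). Hspa13, an HSP70 of the endoplasmic reticulum, was lower in all 3 MSC-TPr libraries, by little in MSC-TPr 3, with 106.4, 112.3 and 110.5 CPM against 68.4, 88.5 and 104.6 CPM (-0.33, adjusted p 0.45; -0.20 and 0.23 over the 4 libraries).

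The inducible HSP70 genes, a common readout of the heat shock response, were highest in Ctl MSC 1. Hspa1b had 30.6, 12.1 and 11.8 CPM in Ctl MSC, against 11.3, 11.4 and 18.0 CPM in MSC-TPr, and Hspa1a had 5.38, 3.04 and 2.81 CPM against 2.60, 2.13 and 3.57 CPM. The other 5 libraries lay between 11.3 and 18.0 CPM for Hspa1b and between 2.13 and 3.57 CPM for Hspa1a. Their log2 fold changes were -0.42 and -0.43 with edgeR adjusted p of 0.70 and 0.63, and over the 4 libraries numbered 2 and 3 they were 0.30 and -0.02 with adjusted p of 0.32 and 0.96. Hspa2, known from male germ cells, had 4.95, 8.01 and 7.78 CPM against 10.0, 8.05 and 7.70 CPM (0.31, adjusted p 0.63; 0.00 and 0.99 over the 4 libraries).

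Hspa12a, a distant HSP70 relative, had the most positive fold change of all members. It had 12.4, 5.29 and 4.47 CPM in Ctl MSC, against 11.2, 16.6 and 30.2 CPM in MSC-TPr, so that Ctl MSC 1 lay above MSC-TPr 1. The log2 fold change was 1.39 ± 0.53 (SE, n = 3 per group; edgeR adjusted p 0.29), and it was called over the 4 libraries (2.27, adjusted p 0.0029) and with the covariate (1.05, adjusted p 0.033).

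Of the mitochondrial chaperonin, Hspd1 forms the folding chamber and Hspe1 its lid, and they share the stretch of 4 heat shock units shown above. Hspd1 had 1064, 1084 and 1120 CPM in Ctl MSC, against 1308, 1507 and 1143 CPM in MSC-TPr, with no overlap under TMM scaling. Hspe1 had 261.0, 295.1 and 328.6 CPM against 282.7, 305.8 and 217.6 CPM, with overlap. The log2 fold changes were 0.28 (edgeR adjusted p 0.50) and -0.13 (adjusted p 0.79), and over the 4 libraries 0.27 and -0.25 (0.23 and 0.30), so that neither passed in either fit. The ratio of Hspd1 to Hspe1 per kb, chosen after the values were seen, was 2.27, 2.05 and 1.90 in Ctl MSC and 2.58, 2.75 and 2.93 in MSC-TPr, with means 1.33 times apart.

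Small heat shock proteins hold unfolding proteins until HSP70 takes them over. The 5 tested were grouped by name and not by function, Hspb11 among them. In 3 of the 5 (Hspb1, Hspb6 and Hspb7) the 3 highest libraries were those with high cell division genes, whatever their label. The same order held in 19.0% of the 58 members and in 23.0% of all genes tested. Hspb7, known from heart muscle, had 19.2, 1.23 and 1.21 CPM in Ctl MSC, against 0.941, 9.11 and 10.1 CPM in MSC-TPr. The spread within a label was larger than the difference between labels. The log2 fold change was -0.09 ± 1.26 (SE, n = 3 per group; edgeR adjusted p 0.98) over 6 libraries and 2.97 (adjusted p 0.00033) over the 4 libraries, and with the covariate it was -0.77 (adjusted p 0.048). Hspb1 (Hsp25) had 108.2, 35.4 and 39.5 CPM against 39.9, 73.3 and 82.2 CPM, and Hspb6 34.1, 16.6 and 16.1 CPM against 19.0, 28.0 and 36.3 CPM. Their log2 fold changes were 0.09 and 0.32 over 6 libraries (edgeR adjusted p 0.95 and 0.75), and 1.06 and 0.98 over the 4 (0.0018 and 0.0053).

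Hspb8, which acts with Bag3 in autophagy of aggregates, was the only one of the 5 that separated the labels. It had 122.9, 122.6 and 133.7 CPM in Ctl MSC, against 114.3, 107.5 and 103.0 CPM in MSC-TPr, lower in all 3, with a log2 fold change of -0.22 ± 0.13 (SE, n = 3 per group; edgeR adjusted p 0.47), or -0.28 over the 4 libraries (0.088).

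**Figure D4:**
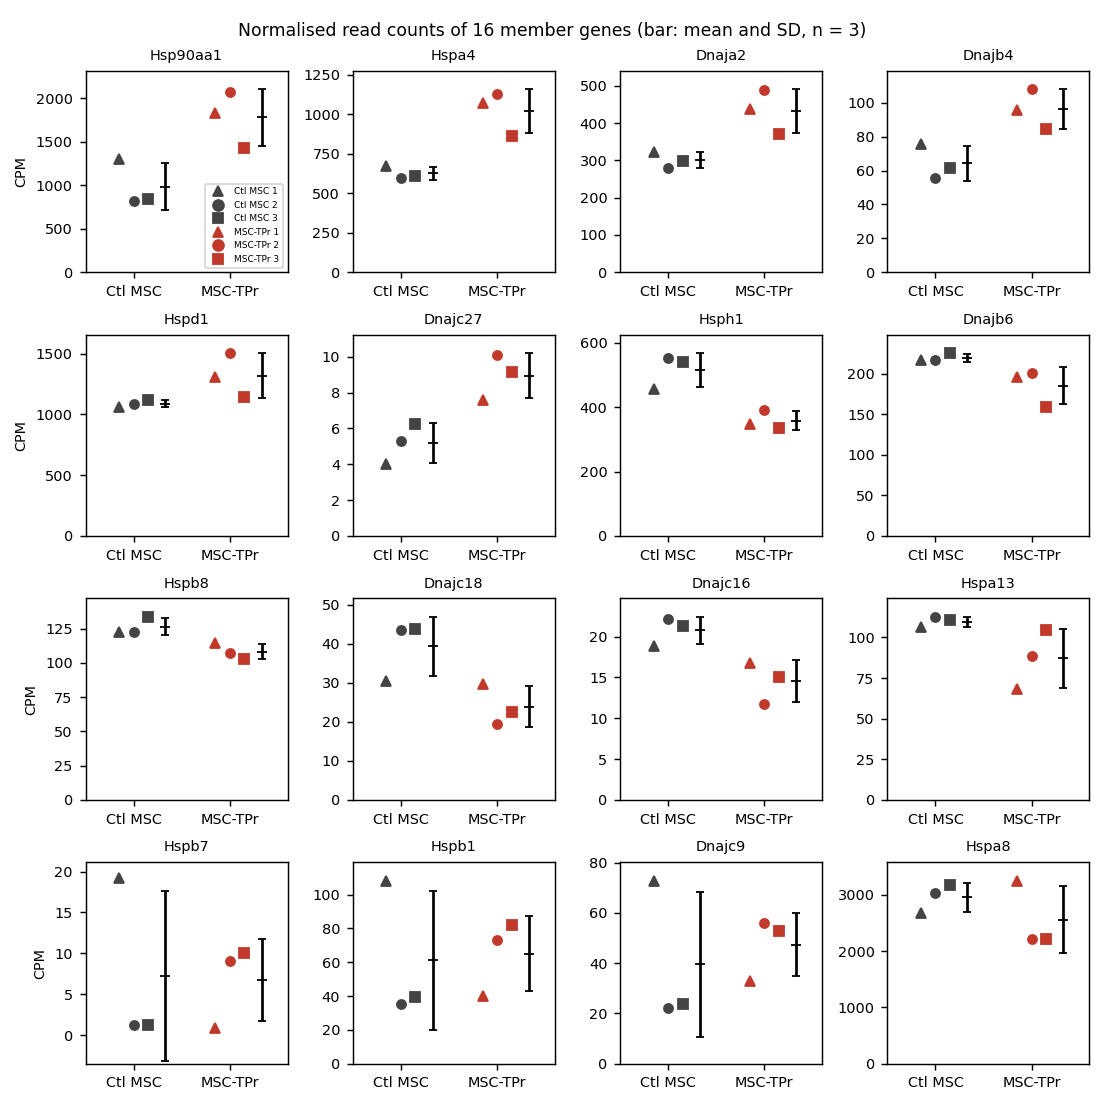
CPM of 16 members in each library, with the mean and SD of each label. The first 6 genes are higher and the next 6 lower in all 3 MSC-TPr libraries, and in Hspb7, Hspb1 and Dnajc9 Ctl MSC 1 (triangle) is the highest library, at 19.2, 108.2 and 72.8 CPM, with MSC-TPr 2 and 3 after it.

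J-domain proteins deliver clients to HSP70 and start its ATP hydrolysis. The 34 tested had a median log2 fold change of -0.05, 16 above 0 and 18 below, and 0 were called over the 6 libraries. In class A, close relatives of bacterial DnaJ, Dnaja2 had 323.5, 280.5 and 299.2 CPM in Ctl MSC, against 438.2, 489.3 and 371.6 CPM in MSC-TPr. All 3 were higher, and the log2 fold change was 0.52 ± 0.17 (SE, n = 3 per group; edgeR adjusted p 0.23), or 0.57 over the 4 libraries (adjusted p 0.031). Dnaja1, another member of the class, had 364.9, 290.8 and 306.2 CPM against 336.2, 315.1 and 241.2 CPM, with overlap and a log2 fold change of -0.11 (adjusted p 0.83), or -0.10 over the 4 libraries (0.63). The ratio of Dnaja2 to Dnaja1 per kb, again chosen after the values were seen, was 2.57, 2.80 and 2.83 in Ctl MSC and 3.78, 4.50 and 4.47 in MSC-TPr. Its size depends on the exon lengths given above, while its order across libraries does not.

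In class B, Dnajb4 was higher and Dnajb6 lower in all 3 MSC-TPr libraries. Dnajb4 had 75.6, 55.8 and 61.3 CPM against 95.8, 108.3 and 84.6 CPM, a log2 fold change of 0.58 ± 0.18 (SE, n = 3 per group; edgeR adjusted p 0.22) that was called over the 4 libraries (0.72, adjusted p 0.012). Dnajb6, a suppressor of polyglutamine aggregation, had 216.6, 216.1 and 225.5 CPM against 195.4, 201.0 and 159.0 CPM (-0.25, adjusted p 0.49, and -0.29, adjusted p 0.15, over the 4 libraries). Dnajb1, the inducible partner of HSP70 in disaggregation, overlapped with 58.2, 52.1 and 57.5 CPM against 70.1, 68.0 and 57.1 CPM (0.22, adjusted p 0.54; 0.19 and 0.28 over the 4 libraries). Dnajb5 had the most negative fold change of all members, -0.82 (adjusted p 0.40), from 3.63, 5.13 and 7.12 CPM against 4.43, 2.43 and 2.13 CPM, and over the 4 libraries it was called lower (-1.42, adjusted p 0.0065).

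Class C proteins share only the J domain and have varied tasks. Dnajc27, a small GTPase with a J domain, had 3.99, 5.29 and 6.23 CPM in Ctl MSC, against 7.58, 10.1 and 9.14 CPM in MSC-TPr, with no overlap and a log2 fold change of 0.79 ± 0.26 (SE, n = 3 per group; edgeR adjusted p 0.24), called over the 4 libraries (0.74, adjusted p 0.02). On the other side, Dnajc18, a membrane protein of the endoplasmic reticulum, had 30.6, 43.6 and 43.9 CPM against 29.7, 19.4 and 22.5 CPM. Ctl MSC 1 and MSC-TPr 1 almost met, and the log2 fold change was -0.72 ± 0.24 (SE, n = 3 per group; adjusted p 0.25), called over the 4 libraries (-1.06, adjusted p 0.0019) and with the covariate (-0.55, adjusted p 0.03). Dnajc16 was lower in all 3 too, with 18.9, 22.1 and 21.3 CPM against 16.8, 11.8 and 15.1 CPM (-0.51, adjusted p 0.31), and it was called over the 4 libraries (-0.68, adjusted p 0.018).

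Dnajc9 and Dnajc28 were the class C members that differed most between the fits. Dnajc9, a histone cochaperone, had 72.8, 22.2 and 23.7 CPM in Ctl MSC, against 32.9, 56.1 and 52.9 CPM in MSC-TPr. Its high libraries were the 3 with high cell division genes, and the log2 fold change was 0.26 over 6 libraries (edgeR adjusted p 0.85) and 1.25 over 4 (adjusted p 0.00084). Dnajc28 had 2.36, 3.69 and 3.64 CPM against 4.43, 1.36 and 1.30 CPM, with log2 fold changes of -0.45 (adjusted p 0.75) and -1.46 (adjusted p 0.0048).

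Neither heat shock factor separated the labels. Hsf1, the master regulator of the heat shock response, had 62.2, 72.4 and 68.7 CPM in Ctl MSC, against 69.8, 62.2 and 64.1 CPM in MSC-TPr (-0.05 ± 0.14, SE, n = 3 per group; edgeR adjusted p 0.89; -0.16 and 0.28 over the 4 libraries). Hsf2 had 41.0, 58.5 and 57.7 CPM against 79.8, 57.9 and 44.7 CPM (0.21, adjusted p 0.75), where the 4 libraries gave -0.18 (0.37). The activity of these factors is set largely by protein assembly and modification, which RNA levels do not show.

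Fold changes of the members with heat shock units lay on both sides of 0. The 14 with a pair of units had a median log2 fold change of -0.12, with 6 above 0, and the 32 with a window and no pair had 0.08, with 19 above 0. Of the 4 with 3 units, Hspd1 was higher (not with upper quartile scaling) and Dnajb6 and Hsph1 lower in all 3 MSC-TPr libraries, and Hspe1 overlapped. Hspa4 has no pair in its window, and Dnaja2 and the inducible Dnajb1 have none either. Only exact pairs within these windows were counted. A member without a pair may therefore still be under heat shock factors, which was not tested.

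With both libraries numbered 1 left out, 15 of the 58 members (25.9%) were called higher, beside 20.6% of the 12122 genes tested, and 8 (13.8%) were called lower, beside 19.4%. The higher members are Hsp90aa1, Hsp90ab1, Hspa4, Hspa4l, Hspa12a, Hspa14, Hspb1, Hspb6, Hspb7, Dnaja2, Dnajb4, Dnajc2, Dnajc9, Dnajc25 and Dnajc27, and the lower ones are Hsph1, Dnaja3, Dnaja4, Dnajb5, Dnajc14, Dnajc16, Dnajc18 and Dnajc28. With cell division as a covariate in the fit of 6 libraries, 3 members were called higher (Hsp90aa1, Hspa4 and Hspa12a; 5.17%, beside 4.79% of all genes) and 2 lower (Dnajc18 and Hspb7; 3.45%, beside 7.39%). Hsp90aa1, Hspa4 and Hspa12a were called higher, and Dnajc18 lower, by both. Hspb7 was called by both in opposite directions, higher without the libraries numbered 1 and lower with the covariate. The share of all genes called by both was not counted. The fits share the libraries numbered 2 and 3, so they are not independent.

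The 2 fits can be read beside the order of the libraries. In 11 members (19.0%) the 3 highest libraries were Ctl MSC 1, MSC-TPr 2 and MSC-TPr 3, those with high cell division genes; these are Hsp90ab1, Hspa1l, Hspa4l, Hspa12a, Hspa14, Hspb1, Hspb6, Hspb7, Dnajc9, Dnajc19 and Dnajc25. In another 11, Hspa8, Hsf1, Hspb11, Dnaja3, Dnaja4, Dnajb5, Dnajc13, Dnajc14, Dnajc15, Dnajc28 and Dnajc30, the same libraries were the 3 lowest. Among all genes tested these orders took 23.0% and 21.7%. The part of cell division in these values was not tested beyond the covariate given above.

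**Figure D5:**
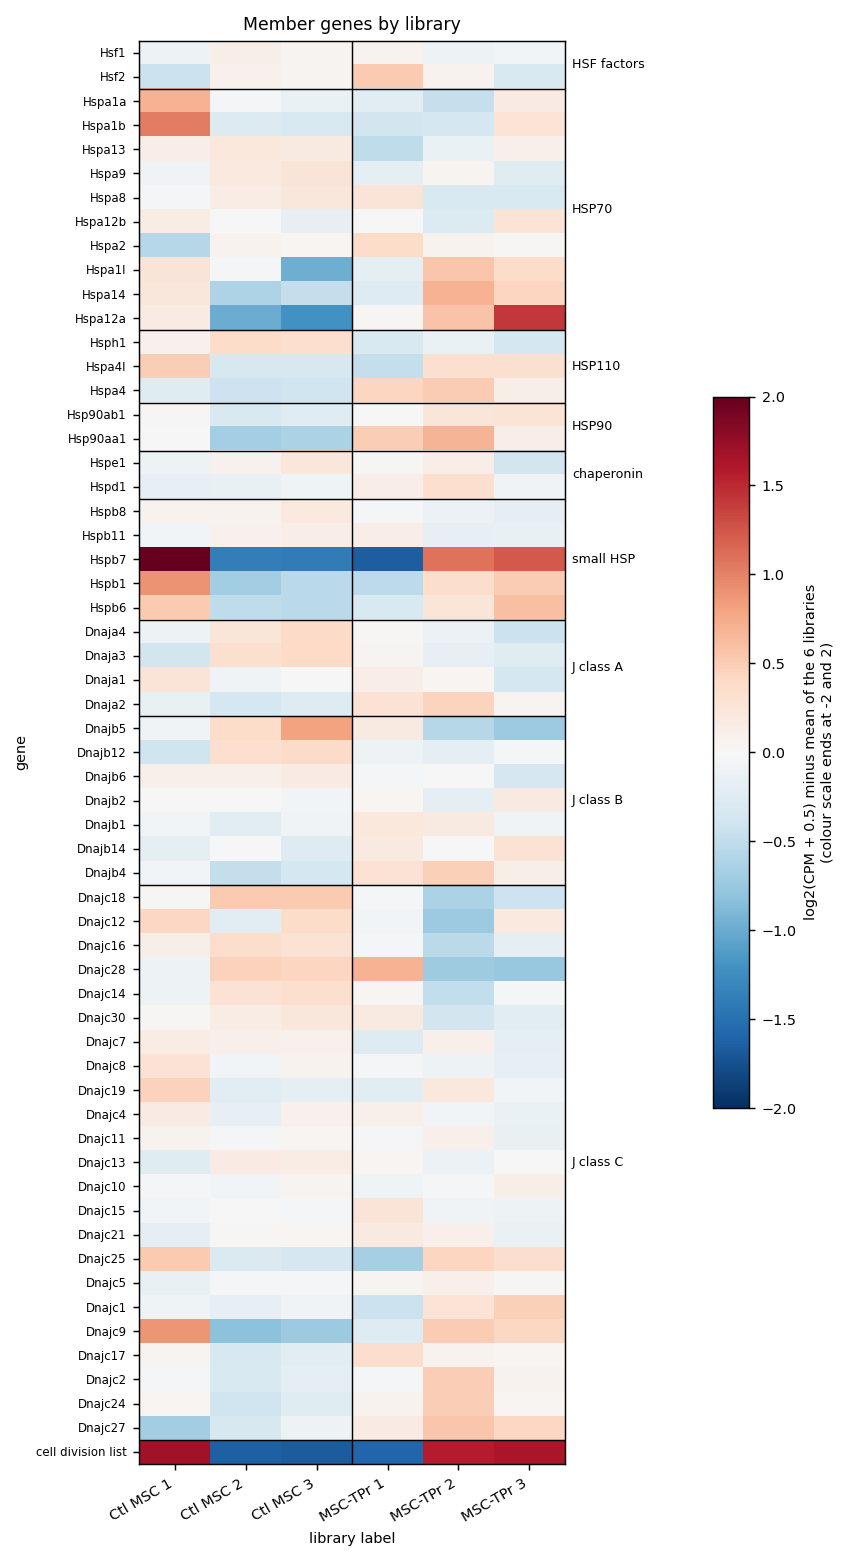
Level of each member in each library as log2(CPM + 0.5) minus its mean over the 6 libraries, grouped by role, with the mean of the cell division list in the last row; Hspb7 in Ctl MSC 1 lies beyond the end of the colour scale. Hspb7, Hspb1, Hspb6, Hspa14 and Dnajc9 have the colours of the last row, while Hspa4, Hsp90aa1 and Dnaja2 are higher, and Hsph1 lower, in every MSC-TPr library.

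Partners of these chaperones were followed in a list of 46 genes, 44 of them tested. Over the 6 libraries 0 were called with edgeR. In all, 11 (25.0%, beside 10.6% of all genes) were higher and 3 (6.82%, beside 12.1%) lower in all 3 MSC-TPr libraries, with a median of 0.22 on the log2 scale, beside 0.01 for all genes. At an unadjusted p under 0.05, edgeR had 10 higher (22.7%, beside 6.81%) and 2 lower (4.55%, beside 8.23%), and DESeq2 called only Sil1, as lower. Over the 4 libraries 15 were called higher (34.1%, beside 20.6% of all genes) and 2 lower (4.55%, beside 19.4%), with a median of 0.34. Ahsa1, which speeds up the ATPase of HSP90, had 95.6, 61.9 and 64.5 CPM in Ctl MSC, against 112.2, 136.1 and 112.9 CPM in MSC-TPr (0.70 ± 0.21, SE, n = 3 per group; edgeR adjusted p 0.22). Over the 4 libraries it had 0.98 (adjusted p 0.0027). Ppid, an HSP90-bound cyclophilin, had 145.5, 144.6 and 143.9 CPM against 221.0, 261.7 and 181.9 CPM (0.61, adjusted p 0.19, and 0.62, adjusted p 0.037, over the 4 libraries). The HSP90 partners as a list of 16 had 4 members higher and 2 lower in all 3 libraries, with a median of 0.20.

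TRiC, the cytosolic chaperonin that folds actin and tubulin, had positive fold changes in all 8 subunits, as 51.1% of all genes tested did. Tcp1, Cct4, Cct6a and Cct7 were higher in all 3 MSC-TPr libraries, as 10.6% of all genes were, with edgeR adjusted p of 0.23 to 0.30, and the 8 had a median of 0.40 on the log2 scale. Cct4 had 485.4, 529.9 and 571.1 CPM in Ctl MSC, against 850.3, 850.4 and 649.6 CPM in MSC-TPr. Its log2 fold change was 0.57 (edgeR adjusted p 0.23), or 0.45 over the 4 libraries (0.067), where it was not called. In Tcp1, MSC-TPr 1 (537.9 CPM) lay just above Ctl MSC 1 (519.2 CPM). Sil1, the nucleotide exchange factor of the endoplasmic reticulum, was lower, with 47.3, 61.3 and 60.7 CPM against 31.7, 29.9 and 29.6 CPM (-0.89 ± 0.16, SE, n = 3 per group; adjusted p 0.088). Over the 4 libraries it had -1.03 (adjusted p 0.0013). Cryab, a small heat shock protein outside the naming rule, had 120.6, 20.3 and 23.8 CPM against 29.1, 87.0 and 70.3 CPM, high in the same 3 libraries as Hspb7 and Hspb1. Its log2 fold change was 0.18 (edgeR adjusted p 0.93), or 1.84 over the 4 libraries (0.00062). Of the other partners, Bag1 to Bag6 lay between -0.11 and 0.56, and the 5 prefoldin subunits tested between -0.17 and 0.31, none of them called over the 6 libraries.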

How the data were processed

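Polyadenylated RNA of 6 libraries was made into strand-marked libraries and sequenced in paired ends. Per the labels, the authors used CASAVA 1.8.2, Trimmomatic 0.35 and TopHat2 2.1.0 with the mm10 build, and the deposited values are raw read counts per gene from Htseq-count; its annotation and strand setting were not given in the sources used here. Rows that name no gene held 13.77% to 20.77% of listed reads and were left out. The counts were fitted with edgeR 4.0.16 under R 4.3.3 (TMM, filterByExpr, quasi-likelihood test with the group as the only term, Benjamini-Hochberg adjustment over all genes tested). An SE is the size of the log2 fold change over the square root of F. DESeq2 1.42.0, other scalings and filters, a replicate block, a covariate and left-out libraries were alternatives. The edgeR step was tested on simulated counts. Exon lengths and shared stretches came from GENCODE M21 on GRCm38, the same build. Groups follow the sample labels. Intervals of counting are not given. Depth limits members with few reads, also above 3 reads. Dnajc12, for example, had 5 to 22 reads per library and an SE of 0.54 on the log2 scale.

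The members and lists were chosen with earlier results of these data known. The genes named with values were a fixed list of main members, up to 5 per direction with the largest change among those whose groups do not overlap, and up to 3 per direction with the largest change in the 4 libraries numbered 2 and 3; other members were named where a count needed it, after their values were seen.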

Additional observations from a re-analysis of the deposited data

How the results depend on the processing

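Over the 31 genes named by rule, 206 of 216 values under other settings kept their direction and side of the threshold, 6 became significant and 4 reversed. Those 4 were Hsf1 (0.00), Hspa4l (-0.16) and Hspb1 (-0.20) with the cell division covariate and Hspb7 (1.35) with the replicate block. Leaving out libraries reversed 19 of 217 values, in Hsf2 (range -0.18 to 0.40), Hspa1b (-0.67 to 0.30), Hspa2 (0.00 to 0.43), Hspa4l (-0.04 to 0.66), Hspe1 (-0.25 to 0.00), Hspb1 (-0.18 to 1.06), Dnaja1 (-0.20 to 0.03), Dnajc9 (-0.03 to 1.25) and Hspb7 (-0.60 to 2.97). Across all genes 51 were called; 31 with at least 10 counts in every library, 1455 with the covariate and 669 with DESeq2, and 0 to 4854 with libraries left out. Members called numbered 0, but 5 with the covariate, 1 with DESeq2 and 0 to 23 with libraries left out, 23 being the fit without both libraries numbered 1. Members whose groups did not overlap numbered 15, and 15 to 42 with libraries left out; the 42 of the 4 libraries numbered 2 and 3 are 72.4%, beside 77.3% of all genes. The members' median log2 fold change of -0.02 moved to -0.06 with upper quartile scaling, -0.05 with the covariate, 0.03 with DESeq2 and -0.04 to 0.06 with libraries left out. Same-numbered libraries deviated from their group means in opposite directions (correlations of -0.765, -0.594 and -0.604). The libraries numbered 1 stood apart from their labels in opposite directions too. These correlations therefore cannot show whether the numbers pair libraries. The fit with the replicate block called 0 genes and 0 members. The cause of these changes was not tested. With 3 libraries a group and a common dispersion of 0.1236 over 6 libraries, against 0.0168 over the 4 numbered 2 and 3, a missed threshold does not show that members were alike.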
